A study of Mus musculus with 16 samples.

Results

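The expression of 38 genes that macrophages and other myeloid cells use was examined in mouse embryonic fibroblasts (MEFs), the adherent cells that grow from dissociated embryos, with and without SIMPL. The genes were listed by name, as known macrophage and myeloid genes, when earlier results of these data were already known, and 37 of them had a probe set paired with no other gene, out of 19938 genes with such a probe set. No value is given for Slc11a1, which had none. Where a gene had several probe sets the brightest was used. Values are the deposited log2 signals of RMA, a method that corrects the background, equalises the arrays and combines the probes of a set.

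RNA was hybridised to 16 arrays of the Affymetrix type Mouse Gene 1.0 ST, with 4 groups of 4 arrays. All mice were C57Bl/6 x 129Sv, and the MEFs were proliferating. The groups were WT (littermate control) MEFs left untreated, WT MEFs given recombinant human TNFα at 10 ng/ml, IRAK1BP1 KO (SIMPL-/-) MEFs left untreated, and SIMPL-/- MEFs given the same TNFα dose. The treatment lasted 45 min according to the labels and 1 h according to the methods of the study. By the same methods each culture came from 1 embryo, and 4 such cultures were made per genotype. The labels do not tie an array to an embryo, so the p-values below measure only the spread between the arrays of a group. They name no batch either, so a difference in handling between the genotypes cannot be told apart from the genotype. The SIMPL gene itself, Irak1bp1, was 8.09 ± 0.17 on the log2 scale without TNFα in littermate MEFs and 5.36 ± 0.19 in SIMPL-/- MEFs (SD, n = 4 each), and the position of its probe set relative to the deleted part was not examined.

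Macrophages are phagocytes that seed most tissues, embryonic ones included, and live under the control of the growth factor CSF1 and the transcription factor PU.1. They take up particles through scavenger, lectin and Fc receptors, many of which signal through small adaptors that carry an activation motif called an ITAM, and break them down in lysosomes. SIMPL is a nuclear partner of the NF-κB subunit p65 in TNFα signalling, and NF-κB drives genes of myeloid activation such as Cd83 and Cd86. Fibroblasts are not known as a source of most of these transcripts.

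Nearly all of the genes were lower without SIMPL. Without TNFα, 35 of the 37 genes stood lower in SIMPL-/- MEFs than in littermate MEFs (limma, adjusted p under 0.05), where 17.6% of all genes were lower. A loss of over 2-fold was found for 30 of the 37, against 1.96% of all genes. Their median difference (log2) was −1.77, and that of all genes 0.07. The loss ranged from 10.7-fold for Mrc1 to 1.47-fold for Cd83, while Folr2 did not pass the test and Cd163 was higher. The genotypes did not overlap for 34 lower genes (17.5% of all genes) and for Cd163, whose SIMPL-/- arrays all lay above the littermate ones (22.1% of all genes), and they overlapped for Cd83 and Folr2. In such bulk samples, fewer macrophages in a culture and less of the RNA per macrophage cannot be told apart.

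**Figure D1:**
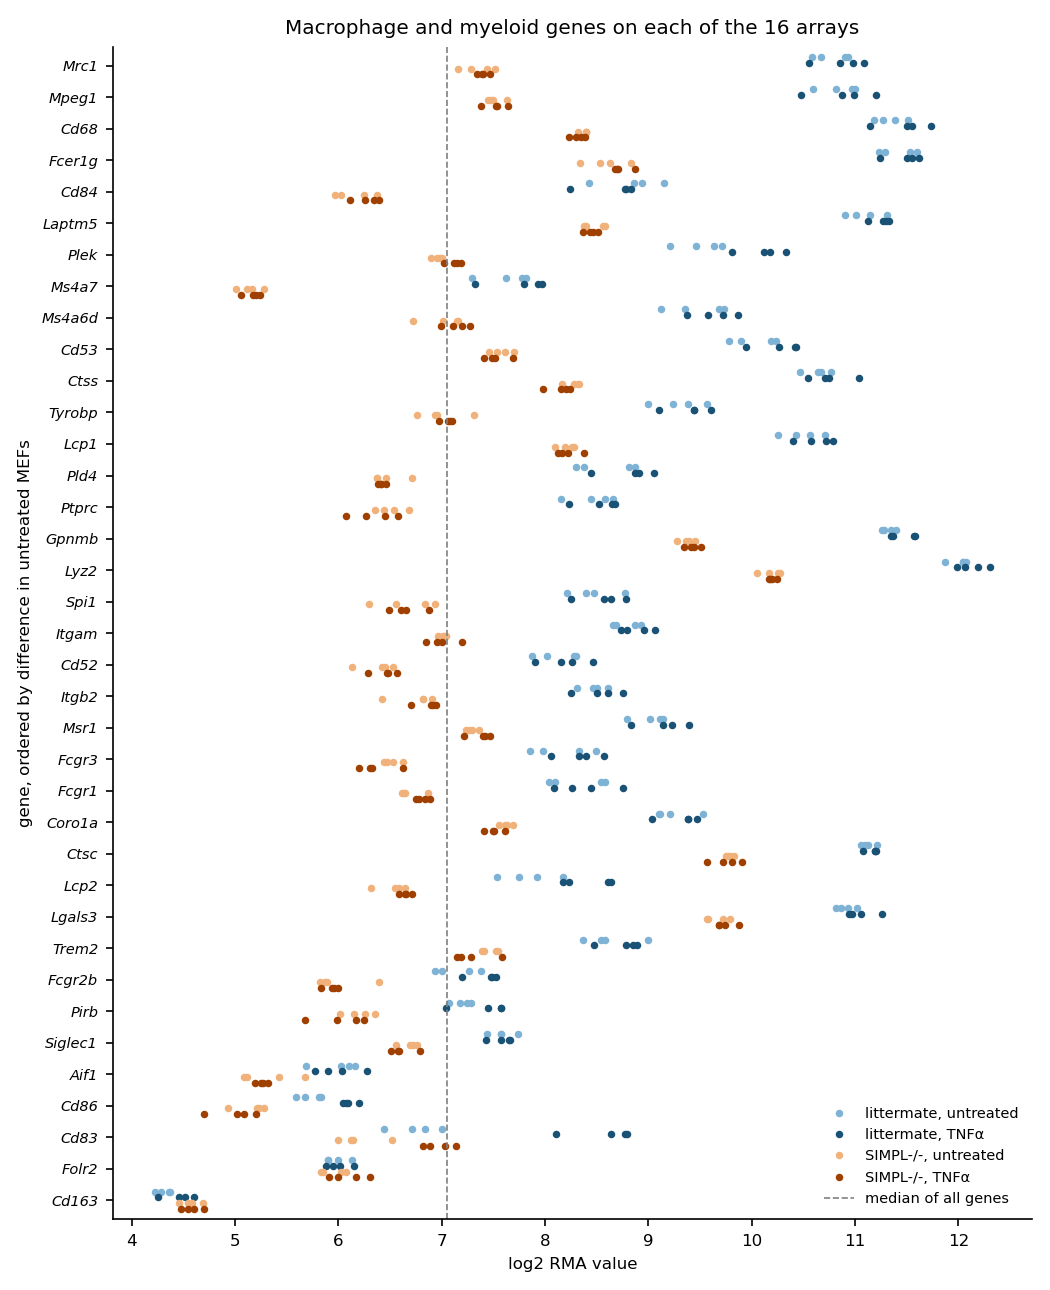
Log2 RMA value (x axis) of each of the 37 genes (rows, from the most to the least lost) on each of the 16 arrays; a point is 1 array, light and dark blue are littermate MEFs without and with TNFα, light and dark orange are SIMPL-/- MEFs without and with TNFα, and the dashed line is the median over all genes. The orange points lie left of the blue ones for all genes but those in the lowest rows (Cd83 without TNFα, Folr2 and Cd163).

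Spi1 encodes PU.1, the transcription factor that specifies the macrophage lineage. Its log2 values were 8.40, 8.21, 8.77 and 8.48 on the untreated littermate arrays and 6.94, 6.30, 6.84 and 6.56 on the untreated SIMPL-/- arrays. The groups did not overlap, and the difference was −1.80 (SE 0.14, limma adjusted p = 5.19e-09), a 3.49-fold loss. After TNFα the difference was −1.91 (SE 0.14, adjusted p = 2.13e-09).

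PU.1 binds DNA at purine-rich sites around GAGGAAG, so the starts of the genes were searched for these letters on both strands. RefSeq windows (GRCm38.p6) of 250 bases before and 50 after a start site were at hand for 28 of the 37 genes. GAGGAAG stood in a window of 11 of the 28 (39.3%), namely Cd53, Ctsc, Ctss, Fcgr1, Fcgr3, Itgam, Laptm5, Mrc1, Pirb, Pld4 and Trem2, and in 15.4% of all genes with a window. The κB letters GGGNNTTCC, searched on both strands, stood in a window of Fcgr3 and Mrc1 (7.14%), against 6.58% of all genes. A match is a string of letters and was not tested as a binding site. The 120 bases before the start are shown for 6 genes, Mrc1 as the gene lost most and the others as receptors or membrane proteins with a match there. Pirb, a receptor that also has a match there, and a second, overlapping window of Fcgr3 are not shown. Capitals mark GAGGAAG or its reverse complement CTTCCTC and, in Mrc1 alone, the κB letters.
Mrc1, chr2:14229294-14229413, plus strand: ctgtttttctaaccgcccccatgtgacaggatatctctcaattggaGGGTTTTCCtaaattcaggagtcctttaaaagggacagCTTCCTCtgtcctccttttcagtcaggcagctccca
Laptm5, chr4:130913196-130913315, plus strand: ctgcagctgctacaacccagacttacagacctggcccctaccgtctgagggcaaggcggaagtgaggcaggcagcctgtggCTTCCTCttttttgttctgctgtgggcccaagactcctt
Itgam, chr7:128062520-128062639, plus strand: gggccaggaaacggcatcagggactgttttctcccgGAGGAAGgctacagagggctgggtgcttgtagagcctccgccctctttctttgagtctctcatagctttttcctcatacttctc
Fcgr1, chr3:96293970-96294089, minus strand: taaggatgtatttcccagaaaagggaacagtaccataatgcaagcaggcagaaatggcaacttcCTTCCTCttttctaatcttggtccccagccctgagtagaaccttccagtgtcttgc
Fcgr3, chr1:171059395-171059514, minus strand: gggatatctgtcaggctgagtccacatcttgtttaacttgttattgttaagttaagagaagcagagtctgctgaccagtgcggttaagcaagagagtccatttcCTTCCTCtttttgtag
Trem2, chr17:48346281-48346400, plus strand: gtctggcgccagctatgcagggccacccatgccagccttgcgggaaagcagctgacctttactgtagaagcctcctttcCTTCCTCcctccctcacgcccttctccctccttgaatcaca

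The uptake receptors held both the most and the least lost genes. Mrc1, the mannose receptor, read 10.67, 10.58, 10.93 and 10.90 on the untreated littermate arrays and 7.28, 7.43, 7.51 and 7.15 on the untreated SIMPL-/- arrays. This gap of −3.42 (SE 0.10, limma adjusted p = 2.04e-14) was the third largest fall of all genes measured. Msr1, the class A scavenger receptor, was 3.31-fold lower (9.02 ± 0.16 against 7.29 ± 0.06, SD, n = 4). Gpnmb, a glycoprotein of phagosomes and melanosomes, fell by 1.95 on the log2 scale (SE 0.07, adjusted p = 6.55e-14). Lgals3, the lectin galectin-3, which many cell types including fibroblasts make, read 10.87, 10.82, 11.02 and 10.93 in littermate and 9.57, 9.57, 9.79 and 9.72 in SIMPL-/- MEFs, a 2.37-fold loss. Siglec1, the sialic acid receptor sialoadhesin, had the smallest loss of these called genes, −0.90 (SE 0.08, adjusted p = 1.86e-08).

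Folr2 and Cd163 went another way. Folr2, a folate receptor of tissue macrophages, read 6.00, 6.14, 5.90 and 5.90 on the untreated littermate and 5.83, 6.07, 6.02 and 5.85 on the untreated SIMPL-/- arrays. These ranges overlapped, and the difference of −0.04 (95% interval −0.22 to 0.14) did not pass the test (limma adjusted p = 0.736). Cd163, the scavenger receptor for haemoglobin bound to haptoglobin, read 4.22, 4.36, 4.37 and 4.28 in littermate and 4.54, 4.46, 4.69 and 4.59 in SIMPL-/- MEFs. It was thus the only one of the 37 genes that was higher, by 0.26 (SE 0.07, adjusted p = 0.00948), where 23.3% of all genes were higher. After TNFα neither gene passed the test, with differences of 0.10 for Folr2 (adjusted p = 0.434) and 0.12 for Cd163 (adjusted p = 0.215). Both stood below the median of all genes in every group. Ranked by level among all genes, Cd163 lay at the 10.6 to 12.5 percentile and Folr2 at the 31.3 to 34.5 percentile. How far probe sets of this brightness can show a fall or a rise was not tested.

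Genes of the lysosome and phagosome were lower in 6 of 6 cases, each by over 2-fold (1.96% of all genes), with a median of −2.24. Mpeg1, the pore-forming protein perforin-2 of phagosomes, read 10.82, 10.59, 10.997 and 10.97 in untreated littermate and 7.50, 7.45, 7.47 and 7.63 in untreated SIMPL-/- MEFs, a 10.1-fold loss. Cd68, the lysosomal glycoprotein macrosialin and a standard macrophage marker, read 11.27, 11.19, 11.51 and 11.38 against 8.40, 8.32, 8.39 and 8.39, a 7.78-fold loss. In both genes the spread within a group was a small part of the gap between the genotypes. Ctss, a protease that frees MHC class II molecules of their chaperone, fell by 2.36, and Pld4, an endolysosomal nuclease, fell by 2.11. Lyz2, lysozyme of myeloid cells, read 12.05, 11.87, 12.05 and 12.07 against 10.17, 10.05, 10.26 and 10.28, a difference of −1.82 (SE 0.07, adjusted p = 5.22e-13 from limma). Ctsc, a peptidase that activates granule proteases and is made by many tissues, had the smallest loss of this group, 2.53-fold (11.12 ± 0.07 against 9.79 ± 0.03, SD, n = 4).

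All 7 Fc receptors and their partners were lower (17.6% of all genes). Fcer1g, the ITAM-bearing chain that activating Fc receptors share, read 11.29, 11.23, 11.60 and 11.54 in untreated littermate and 8.63, 8.53, 8.83 and 8.34 in untreated SIMPL-/- MEFs. Its loss of 7.12-fold (−2.83, SE 0.10, limma adjusted p = 2.6e-13) was the largest of this group. Tyrobp, the ITAM adaptor DAP12, came next with 9.30 ± 0.24 against 6.99 ± 0.23 (SD, n = 4), a 4.95-fold loss. The receptors that use these adaptors differed less between the genotypes than the adaptors did. They were also dimmer in untreated littermate MEFs, at 8.32 (Fcgr1), 8.17 (Fcgr3) and 8.62 (Trem2) against 11.41 (Fcer1g) and 9.30 (Tyrobp). How far a dimmer probe set shows a smaller loss was not tested. Fcgr3 and Fcgr1, activating receptors for IgG, were 3.14-fold and 3.09-fold lower. Trem2, a lipid receptor that pairs with DAP12, was 2.22-fold lower. Fcgr2b, the inhibitory IgG receptor, was also 2.22-fold lower, and Pirb, another inhibitory receptor, had a difference of −0.997 (SE 0.12, adjusted p = 2.43e-06). The 95% interval of Fcer1g lay below that of every receptor named here, and that of Tyrobp (−2.56 to −2.05) below all of them as well. After TNFα the interval of Tyrobp (−2.60 to −2.09) overlapped that of Fcgr3 (−2.24 to −1.71), and the differences between genes were not themselves tested. Fcer1g, Fcgr3 and Fcgr2b lie close together on chromosome 1, with 7 protein-coding genes between Fcer1g and Fcgr3 and 1 between Fcgr3 and Fcgr2b. The Fcgr genes and Pirb have near-identical relatives, and 2 further probe sets shared by Pirb and its relatives were left out, so how far their probe sets read the relatives is uncertain.

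Both integrin chains were lower to a like degree. Itgam and Itgb2, the α and β chains of the leukocyte integrin that binds complement-coated particles, had differences of −1.77 (95% interval −1.95 to −1.60) and −1.73 (−1.95 to −1.50). Their log2 values were 8.65, 8.68, 8.93 and 8.87 against 7.04, 7.01, 7.02 and 6.96 for Itgam, and 8.46, 8.31, 8.61 and 8.51 against 6.82, 6.82, 6.91 and 6.43 for Itgb2. The intervals lay almost on top of each other, and the difference between the chains was not itself tested.

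Leukocyte genes that are not particular to macrophages were lower in 6 of 6 cases, each by over 2-fold (1.96% of all genes). Ptprc, the phosphatase CD45 that all nucleated blood cells carry, read 8.45, 8.16, 8.58 and 8.66 in untreated littermate and 6.44, 6.35, 6.53 and 6.68 in untreated SIMPL-/- MEFs, a 3.88-fold loss with no overlap. Cd84, an adhesion receptor of the SLAM family, Laptm5, a lysosomal membrane protein of blood cells, and the tetraspanin Cd53 were 6.45-fold, 6.12-fold and 5.46-fold lower. Cd52, a short surface glycoprotein, and Lcp2, the signalling adaptor SLP-76, were 3.33-fold and 2.5-fold lower. Of the actin-related genes, Plek, the protein kinase C substrate pleckstrin, was 5.84-fold lower, Lcp1, the actin bundler L-plastin, 4.86-fold and Coro1a, coronin of leukocytes, 3.07-fold. Aif1, which encodes the macrophage marker IBA1, fell by only 0.67 (SE 0.13, limma adjusted p = 0.000333). Its values were 6.03, 5.69, 6.10 and 6.16 against 5.11, 5.43, 5.68 and 5.08, so that the nearest arrays of the genotypes nearly met. Ms4a7 and Ms4a6d, membrane proteins of macrophages whose genes lie 7 protein-coding genes apart on chromosome 19, were 5.58-fold and 5.51-fold lower.

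The order of the losses ran in small steps. The 95% interval of each gene's difference overlapped that of the next gene in the order, except between Cd83 and Folr2. Overlap alone does not show that neighbours are equal, and the differences between genes were not tested. The ends of the order were apart: the interval of Mrc1 (−3.64 to −3.21) overlapped only that of Mpeg1, and that of Cd68 (−3.16 to −2.76) only those of 4 genes. After TNFα, on arrays that share none with the untreated comparison, 35 of the 37 genes were again lower (18.4% of all genes), 33 of them by over 2-fold (2.24% of all genes), and 0 were higher (17.8% of all genes; 0 of the 37 also at an unadjusted p under 0.05 and by the methods' t-test). For each of these 35 genes the groups did not overlap (17.2% of all genes). The median difference was −1.91, against 0.03 over all genes. Across the 37 genes the differences without and with TNFα had a Pearson's r of 0.964 and a Spearman's rho of 0.959. These are values across genes, which are not independent replicates, and cells of the same embryo may stand on both sides. Of the 10 most lost genes 9 were the same in both comparisons, and of the 10 least lost genes likewise 9. The widest gap between the comparisons was that of Cd83, 1.05 on the log2 scale. Genes brighter in untreated littermate MEFs tended to have larger untreated losses (Pearson's r −0.756 and Spearman's rho −0.704 between level and difference). That level is itself subtracted in the difference, so a negative value arises in part by construction. With the level in untreated SIMPL-/- MEFs, the other term of the difference, Pearson's r was −0.405 and Spearman's rho −0.445. In untreated SIMPL-/- MEFs 22 of the 37 genes stood below the median of all genes. How far brightness sets the order was not tested.

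**Figure D2:**
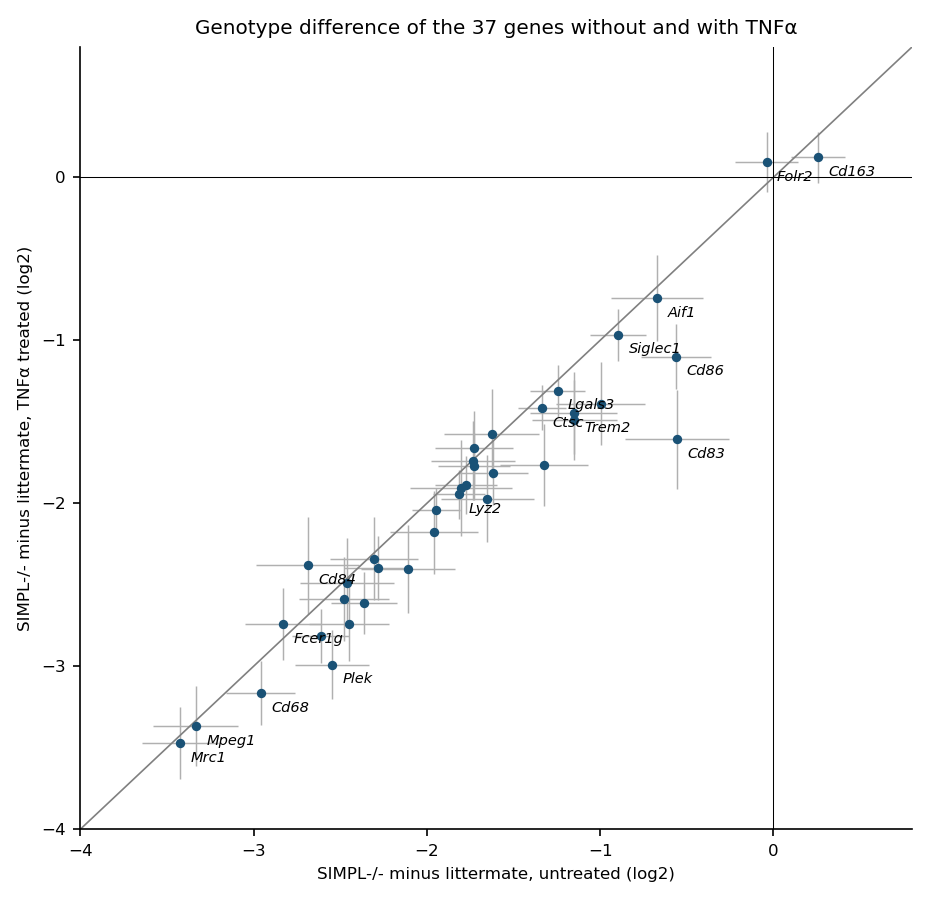
Difference between SIMPL-/- and littermate MEFs (log2) for each of the 37 genes, untreated on the x axis and TNFα treated on the y axis; a point is 1 gene, bars are 95% intervals from limma, and the diagonal marks equal differences. Mrc1 and Mpeg1 are at the lower left and Folr2 and Cd163 at the upper right, while Cd83 and Cd86 lie farthest below the diagonal.

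Few of the genes passed the test for a response to TNFα. In littermate MEFs 4 of the 37 rose at an adjusted p under 0.05 from limma (2.7% of all genes), 8 were higher at an unadjusted p under 0.05 (8.3% of all genes) and 0 fell (2.45% of all genes; 0 of the 37 also at an unadjusted p under 0.05 and by the methods' t-test). In SIMPL-/- MEFs 1 of the 37 rose (1.73% of all genes) and 0 fell (1.39% of all genes; again 0 at an unadjusted p under 0.05 and by the methods' t-test). Of the 33 genes that did not pass in littermate MEFs, the responses ranged from −0.18 to 0.28. Over the 37 genes the estimate in littermate MEFs was above 0 for 35, and over all genes for 53.8%. The 37 genes varied together among littermate arrays, as described below, so they are not independent observations. Treated arrays all lay above the untreated ones for 4 genes in littermate MEFs (5.29% of all genes) and for Cd83 and Plek, 2 genes, in SIMPL-/- MEFs (3.87% of all genes). They all lay below for 0 genes in either genotype (6.12% and 5.41% of all genes).

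Cd83, a surface protein of activated antigen-presenting cells, had the largest response. It read 6.72, 6.44, 6.84 and 7.004 on the untreated and 8.79, 8.77, 8.64 and 8.11 on the TNFα treated littermate arrays, a rise of 1.83 (SE 0.14, limma adjusted p = 5.23e-08). In SIMPL-/- MEFs it read 6.00, 6.52, 6.14 and 6.12 without and 7.14, 6.82, 7.03 and 6.89 with TNFα, a rise of 0.78 (SE 0.14, adjusted p = 0.00351). Treated and untreated arrays did not overlap in either genotype, and the treated SIMPL-/- values lay near or just above the untreated littermate ones. The response was smaller by 1.05 without SIMPL (difference −1.05, SE 0.20, adjusted p = 0.0191), and Cd83 was the only one of the 37 genes whose responses differed at this threshold (0.441% of all genes had a smaller and 0.0953% a larger response). This call was lost without array 14 (difference −0.94, adjusted p = 0.0566) and with an unmoderated test (adjusted p = 0.105). Its genotype difference was 1.47-fold before TNFα, with overlapping groups, and 3.05-fold after it.

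Cd86, a costimulatory ligand of T cells, read 5.68, 5.84, 5.59 and 5.81 on the untreated and 6.10, 6.201, 6.07 and 6.04 on the treated littermate arrays. It rose there by 0.38 (SE 0.10, limma adjusted p = 0.0247), a call that was lost without array 1, 3, 5 or 6 (adjusted p up to 0.0873). In SIMPL-/- MEFs it read 4.93, 5.21, 5.28 and 5.24 without and 5.20, 5.09, 5.02 and 4.70 with TNFα, a difference of −0.16 that did not pass the test (adjusted p = 0.452). The difference between the responses, −0.54 (SE 0.13), did not pass the test either (adjusted p = 0.0938). Its genotype difference was 1.48-fold before and 2.14-fold after TNFα, and the genotypes did not overlap in either state.

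Plek and Lcp2 rose in littermate MEFs as well. Plek read 9.47, 9.21, 9.63 and 9.71 without and 10.33, 10.18, 10.12 and 9.81 with TNFα, a rise of 0.60 (SE 0.10, limma adjusted p = 0.000865), and the treated arrays lay above the untreated ones. Its response in SIMPL-/- MEFs was 0.16 (adjusted p = 0.495), and the difference between the responses was −0.44 (adjusted p = 0.198). Lcp2 rose by 0.57 (SE 0.12, adjusted p = 0.00708) in littermate MEFs and had a response of 0.13 (adjusted p = 0.679) in SIMPL-/- MEFs, a difference of −0.44 (adjusted p = 0.292). The SE pools all 4 groups, and for both Plek and Lcp2 the littermate arrays spread more than the SIMPL-/- ones. By the methods' t-test on littermate arrays alone neither rise passed (adjusted p = 0.132 for Plek and 0.208 for Lcp2). Pirb was the fifth gene, with Cd83, Cd86, Plek and Lcp2, whose difference between responses had an unadjusted p under 0.05. In all 5 the response was the smaller one in SIMPL-/- MEFs, against 8.26% of all genes with a smaller and 4.67% with a larger response at that threshold. Over the 37 genes the estimate of the response was lower in SIMPL-/- MEFs for 32 (86.5%), and over all genes for 58.7%. As the 37 genes varied together among littermate arrays, this count does not rest on independent observations.

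**Figure D3:**
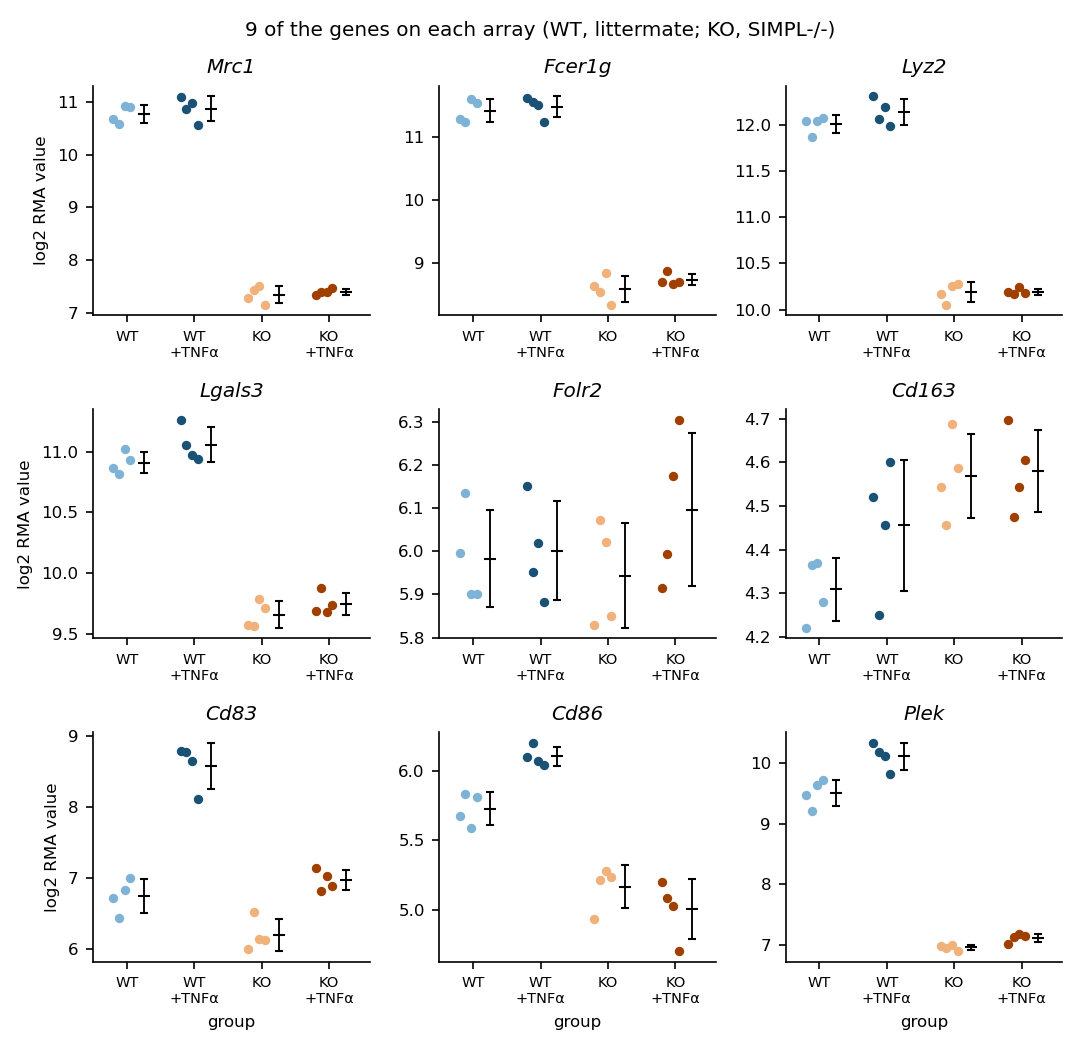
Log2 RMA value (y axis, with its own range in each panel) of 9 of the genes in littermate (WT) and SIMPL-/- (KO) MEFs without and with TNFα; a point is 1 array, and the bar is the mean ± SD of 4 arrays. Mrc1, Fcer1g, Lyz2 and Lgals3 differ by genotype and hardly by TNFα, Folr2 and Cd163 differ by less than 0.3 between the genotypes, and Cd83, Cd86 and Plek rise with TNFα in littermate MEFs.

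The 37 genes varied together among littermate arrays. In littermate MEFs the median SD of one of these genes was 0.19 without and 0.21 with TNFα, against 0.09 and 0.10 over all genes, while in SIMPL-/- MEFs it was 0.11 in both states, against 0.09 and 0.10. Array 2 was the lowest of the untreated littermate arrays for 28 of the 37 genes (20.3% of all genes) and array 3 the highest for 28 (27% of all genes). Among the treated littermate arrays, array 5 was the highest for 31 (30.3% of all genes) and array 8 the lowest for 33 (27.4% of all genes). The mean over the 37 genes was 8.84, 8.72, 9.07 and 8.998 on arrays 1 to 4, and 9.26, 9.12, 9.14 and 8.85 on arrays 5 to 8. In SIMPL-/- MEFs it ran from 7.08 to 7.19 on the untreated and from 7.11 to 7.17 on the treated arrays, so the littermate arrays spread over a wider range but came nowhere near the SIMPL-/- ones. The mean of 47 other macrophage genes followed the same arrays, at its lowest on arrays 2 (7.59) and 8 (7.61) and at its highest on arrays 3 (7.83) and 5 (7.92). Its part in the responses of the 37 genes was not tested. With any single array left out, 35 genes were still lower in each genotype comparison.

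**Figure D4:**
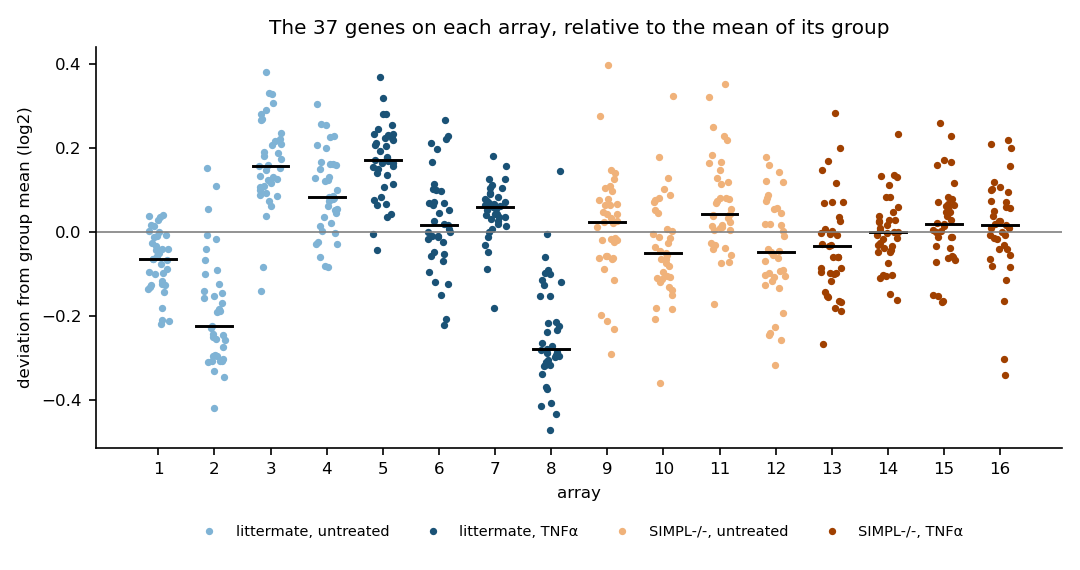
Deviation (log2, y axis) of each of the 37 genes from its mean in the group, for each of the 16 arrays (x axis); a point is 1 gene, the black bar is the median, and colours are the groups. Arrays 2 and 8 lie mostly below and arrays 3 and 5 mostly above 0, while the SIMPL-/- arrays scatter around 0.

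Most other macrophage genes were lower too, though a smaller part of them than of the 37. Of 47 measured macrophage genes outside the list, 34 were lower without SIMPL before TNFα (17.6% of all genes), 3 were higher (23.3% of all genes) and 10 did not pass the test, with a median of −1.55. In untreated littermate MEFs 18 of these 47 genes stood below the median of all genes, against 5 of the 37. The part of brightness in the smaller share was not tested. The largest falls were those of C1qc, a chain of complement C1q (−2.84), Tlr7, an RNA sensor (−2.78), and C3ar1, the C3a receptor (−2.75). A further list held 29 genes of signalling around Fcer1g and Tyrobp, mostly kinases, adaptors and cytoskeletal regulators with some paired receptors. Of these 29, 24 were lower (17.6% of all genes), with a median of −0.93. Higher were 0 (23.3% of all genes), also at an unadjusted p under 0.05 from limma. Nckap1l and Dock2, regulators of the actin cytoskeleton in blood cells, and Fyb, an adaptor that binds SLP-76, led with −2.39, −2.16 and −2.11. Of 19 lysosomal genes that many cell types use, 17 were lower (17.6% of all genes), with a smaller median of −0.63. Again 0 were higher (23.3% of all genes), likewise at an unadjusted p. Csf1r, the receptor through which CSF1 keeps macrophages alive, differed by −2.07 (10.21 ± 0.22 against 8.13 ± 0.04, SD, n = 4), whereas Csf1 itself was higher by 1.18 (10.20 ± 0.12 against 11.38 ± 0.07). After TNFα Csf1 was higher by 0.36. In all, 7 of 17 macrophage growth factors and receptors were lower (17.6% of all genes) and 5 higher (23.3% of all genes) before TNFα. After it 11 were lower (18.4% of all genes) and 2 higher (17.8% of all genes). The count of 5 ran from 3 to 6 with single arrays left out, and was 3 without array 3, 4, 9 or 11. Of 24 further myeloid transcription factors 11 were lower (17.6% of all genes). Higher were 7, a share near that of all genes (23.3%).

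Genes whose values ran most closely with the mean of the 37 over the 16 arrays were Lgmn, Ctsb, Sirpa, Stab1, Fcrls, Adgre1, Csf1r, C1qa, Pik3cg and C5ar1, with a Pearson's r of 0.997 to 0.999. These r values rest mostly on the gap between the genotypes and are a description. Of these genes, Fcrls, an Fc receptor-like protein of macrophages, had the largest difference (11.16 ± 0.29 against 7.43 ± 0.17, SD, n = 4, a difference of −3.73).

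Between 0 and 3 markers of each other blood cell were lower, where 17.6% of all genes were. Of the measured markers in untreated SIMPL-/- MEFs, 2 of 13 T cell, 0 of 11 B cell, 0 of 9 NK cell, 3 of 13 neutrophil, 0 of 13 dendritic cell, 1 of 10 mast cell, 0 of 6 erythroid, 0 of 5 megakaryocyte and 2 of 9 osteoclast genes were lower. Higher were 3 T cell, 1 B cell, 2 NK cell, 1 neutrophil, 3 dendritic cell, 3 mast cell, 2 erythroid, 0 megakaryocyte and 3 osteoclast genes, where 23.3% of all genes were. Several of these small counts of higher genes moved by over 1.5 times with a single array left out, such as the T cell count from 3 to 1 without array 1, 10 or 11. At an unadjusted p under 0.05, 1 dendritic cell gene and none of the B cell, NK cell, erythroid and megakaryocyte genes were lower. The T cell markers averaged 5.45 to 5.56 on the untreated littermate and 5.50 to 5.58 on the untreated SIMPL-/- arrays, ranges that overlapped. In untreated littermate MEFs 12 T cell, 10 B cell, 9 NK cell, 13 neutrophil, 13 dendritic cell and 10 mast cell genes stood below the median of all genes. The same held for 6 erythroid, 4 megakaryocyte and 5 osteoclast genes. How far markers of such brightness can show a fall was not tested, so their counts cannot show whether these cells were spared. The cultures were labelled as fibroblasts, and the mean of 19 fibroblast genes lay between 12.30 and 12.40 on littermate and between 12.06 and 12.18 on SIMPL-/- arrays. These ranges did not overlap. Of the 19 fibroblast genes, 11 were lower (17.6% of all genes) and 4 higher (23.3% of all genes) without SIMPL before TNFα. Their median difference was −0.235, and that of all genes 0.07. Among them were Lum (−2.87) and Dcn (−1.02), matrix proteoglycans, and S100a4, a calcium-binding protein (1.69). Of 12 endothelial genes 1 was lower (17.6% of all genes) and 4 higher (23.3% of all genes). Of 10 epithelial genes 0 were lower (0 at an unadjusted p) and 7 higher, led by Krt18 (2.13), beside the same shares of all genes. The count of 7 was 4 without array 2, and after TNFα 3 were higher (17.8% of all genes). The part of these other cell types in the differences of the 37 genes was not tested.

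**Figure D5:**
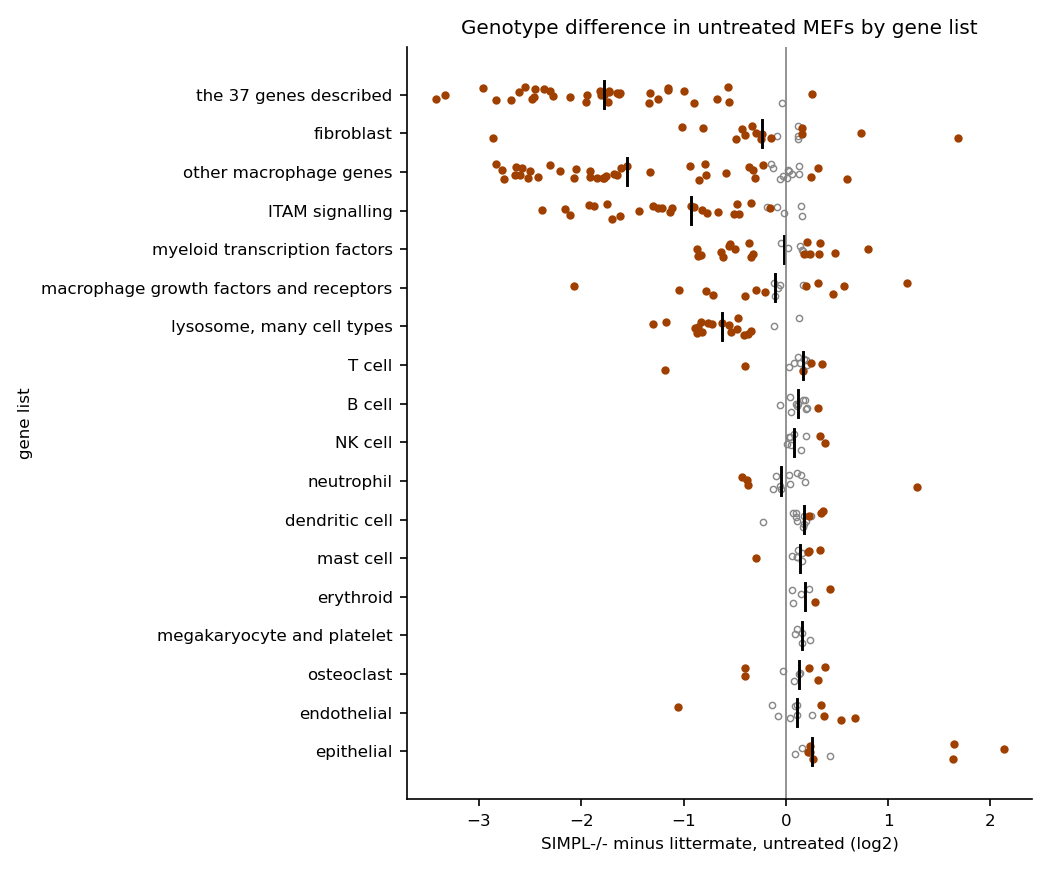
Difference between untreated SIMPL-/- and untreated littermate MEFs (log2, x axis) for the 37 genes and for each other gene list (rows); a point is 1 gene, filled where the limma adjusted p is under 0.05, and the black bar is the median of the list. The 37 genes and the other macrophage genes have medians of −1.77 and −1.55, and the lists of lymphoid cells have medians between 0.08 and 0.17.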

How the data were processed

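Total RNA of untreated and TNFα treated littermate and SIMPL-/- MEFs was hybridised to 16 arrays. The deposited table holds log2 values, from 2.41 to 14.9, which the submitters' processing notes credit to RMA in Partek, without versions. The methods name another program of Affymetrix. Of the probe sets, 21789 have 1 gene symbol, 1621 with several were left out and 5443 have none listed. The brightest probe set stood for each of the 19938 genes, and no filter was applied. RefSeq gave current symbols for 19856 genes. Array medians ran from 6.67 to 6.76. With R 4.3.3 and limma 3.58.1, a mean per group was fitted over all arrays (12 residual and 6.19 prior degrees of freedom), and 5 contrasts were tested two-sided with Benjamini-Hochberg adjustment over all genes. Precision is limited by the 4 arrays a group. The procedure was tested on simulated data. The 37 genes and all gene lists were chosen with earlier results of these data known, so their counts are descriptions beside those of all genes. Named outside the list were Irak1bp1, genes with the largest difference in their list, and the 10 genes that ran most closely with the mean of the 37. Alternatives were centring on the median, quantile normalization, leaving out dim genes (below the median over genes), the mean of probe sets, trend and robust moderation, weights per array, fitting only the groups compared, the methods' t-test (unpaired), an adjusted p under 0.01, and leaving out each array. Dixon's ratio over 0.829 marked an array that stood apart.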

Additional observations from a re-analysis of the deposited data

Results flagged for a closer look

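Some genes had 1 array far from the others of its group by Dixon's ratio, the gap to the nearest array over the range of the group. Chance gives about 1 such array in 20 groups, and 8 of the 152 groups tested had one (5.26%). Array 2 stood apart for Lyz2 among the untreated littermate arrays (ratio 0.884). Array 8 stood apart among the treated littermate arrays for Ctsc (0.928), Cd84 (0.897) and Fcgr2b (0.838), and was the lowest in each. Among the untreated SIMPL-/- arrays, array 10 stood apart for Cd68 (0.942) and Fcgr1 (0.88) and array 9 for Fcgr2b (0.883). Among the treated SIMPL-/- arrays, array 14 stood apart for Fcer1g (0.855). The genotype differences of all these genes passed the test with any single array left out.

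Cd83 differed between the genotypes in its response to TNFα, by −1.05 on the log2 scale (limma adjusted p = 0.0191). All 4 treated arrays lay above all 4 untreated ones in each genotype.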

How the results depend on the processing

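The 35 lower genes were 35 in both genotype comparisons with any array left out, and the medians then ran from −1.82 to −1.70 without and from −1.99 to −1.88 with TNFα. Leaving out dim genes removed 7 of the 37 genes (Aif1, Cd163, Cd86, Fcgr2b, Folr2, Ms4a7 and Pirb), which by construction left 0 higher genes and medians of −1.88 and −2.01. The sign of the difference of Folr2 turned without array 2, over a range of −0.0825 to 0.0115. By the methods' t-test 1 gene, Cd83, rose with TNFα in littermate and 0 in SIMPL-/- MEFs, and Plek, Lcp2 and Cd86 no longer passed. The count of smaller responses, 1, was 0 with an unmoderated test and at an adjusted p under 0.01, and ran from 0 to 2 with single arrays left out, being 0 without array 14 and 2 without array 9, where Cd86 passed (adjusted p = 0.0458). Counts of the other gene lists moved by over 1.5 times, or to or from 0, in 104 instances and stayed closer in 508, with all arrays kept. With single arrays left out these numbers were 62 and 482. The causes of these changes were not tested. No paired analysis was possible because neither labels nor methods tie untreated and treated arrays to the same embryo. Dim probe sets and 4 arrays a group limit what small responses can show.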
